A study of Mus musculus with 4 samples.

Results

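The genes described here were Zbtb16, which encodes the transcription factor PLZF, and 5 genes through which double positive (DP) thymocytes present lipid antigen and signal to one another when natural killer T (NKT) cells are selected, namely Cd1d1, Slamf1, Slamf6, Ly9 and Sh2d1a. They were taken by symbol from the deposited fragment count table and were 6 of its 24984 genes, and all 6 were found. The selection was made with the results of the WT and cKO comparison known, so the differences of these 6 genes between the genotypes, and whether each met the criteria of a call, are given as a description, with no p-value, and support nothing.

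The study used TTchem-seq, in which cells take up 4-thiouridine for a short time and the labelled, newly made RNA is purified and sequenced, so that fragments over a gene report its transcriptional output rather than its accumulated mRNA. The question was which genes of DP thymocytes change their output when Tox4, a chromatin-associated HMG box protein, is lost. The WT group had the genotype Tox4;F/F, with both Tox4 alleles floxed and no Cre, and the cKO group had Tox4;F/F;Lck+, the same floxed alleles with a Cre that, per the study's methods, removes exons 4 to 6 of Tox4. All mice therefore carried floxed Tox4, and they were on the C57BL/6 background and 6 to 8 weeks old per the same methods. Lck-driven Cre acts throughout the T lineage from before the DP stage, so the deletion was not limited to DP cells. No agent differed between the groups, and cells of both were cultured briefly in antibiotics-free medium before the pulse. There were 2 libraries of each genotype. The labels do not say whether each came from a separate mouse, so p-values measure only the spread between these libraries.

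NKT cells are innate-like T cells with a semi-invariant T cell receptor that recognises lipids held by CD1d. Unlike conventional T cells, they are selected by other DP thymocytes, which display CD1d and engage one another through homophilic receptors of the SLAM family. These receptors signal through the small adaptor SAP, the product of Sh2d1a, and the kinase Fyn. Selected cells then switch on Zbtb16, whose product belongs to the BTB zinc finger proteins and gives NKT cells and other innate-like T cells their effector character. DP thymocytes in general carry CD1d, SLAM receptors and SAP, whereas PLZF is characteristic of the selected innate-like cells.

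The reference promoters of Slamf1 and Slamf6, the SLAM receptor genes with the highest output per length here, are shown because E proteins such as HEB, the product of Tcf12, are known to act on the innate-like T cell programme through E-boxes. The RefSeq promoter table of build GRCm38.p6 held these 2 of the 6 genes, and Zbtb16, Cd1d1, Ly9 and Sh2d1a had no entry. Each sequence runs 5′ to 3′ on the + strand from 250 bases before to 50 bases after the gene's start, and capitals mark E-box matches. The Slamf1 window is chr1:171766882-171767181 and the Slamf6 window is chr1:171917212-171917511.
Slamf1: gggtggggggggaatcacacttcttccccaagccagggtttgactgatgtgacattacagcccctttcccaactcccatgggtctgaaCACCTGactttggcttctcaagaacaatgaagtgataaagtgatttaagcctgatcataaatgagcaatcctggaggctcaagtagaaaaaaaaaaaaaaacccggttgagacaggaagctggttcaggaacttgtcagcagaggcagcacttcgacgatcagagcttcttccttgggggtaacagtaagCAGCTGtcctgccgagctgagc
Slamf6: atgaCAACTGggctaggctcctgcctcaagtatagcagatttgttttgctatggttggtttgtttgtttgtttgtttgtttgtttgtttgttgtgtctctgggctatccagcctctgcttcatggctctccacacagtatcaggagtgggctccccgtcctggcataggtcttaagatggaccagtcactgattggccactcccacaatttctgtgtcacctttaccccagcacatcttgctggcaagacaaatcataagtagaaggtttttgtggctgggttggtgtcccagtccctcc
The E-box was searched as CANNTG, which reads the same on both strands, and 72.3% of 32817 promoter windows of 300 bases held at least 1 match. Slamf1 held 2 matches and Slamf6 held 1. The motifs GCGNGGGCG of EGR factors, TGTGGT of RUNX factors and GGAAGT of ETS factors were searched on both strands, were held by 5.56%, 16.8% and 23.8% of the windows, and had no match in either promoter. These matches describe the letters of the windows and say nothing of factor binding.

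The libraries held 42626473 and 48690591 gene-assigned fragments for WT replicates 1 and 2, and 38429786 and 39760312 for cKO replicates 1 and 2. Levels are given as CPM, the fragments of a gene scaled to the total of its library in the usual way. Intervals for counting error are not given, since PCR fragments without molecular identifiers are not independent molecules. Tox4 itself had 74.0 and 70.3 CPM in WT against 59.3 and 57.2 CPM in cKO, and its log2 fold change was -0.31 (SE 0.0998, DESeq2 adjusted p = 0.0453, edgeR adjusted p = 0.153). Tox4 was called under 3 of 13 alternatives and not under the other 10, among them edgeR, limma voom and each left-out library, while its log2 fold change stayed between -0.34 and -0.28. The count covers the whole gene and not only the deleted exons, and Mettl3 and Rab2b overlap Tox4 on the other strand. WT replicate 1 stood apart from the other libraries. Its Xist output was 172 CPM against 0 to 2.36 CPM elsewhere, and its 4 Y-linked genes summed to 1.55 CPM against 267 to 310 CPM. Kdm6a, an X-linked gene that escapes X inactivation, was at 266 CPM against 156 to 176 CPM. This is the pattern of a female mouse beside 3 male ones, although the study's methods describe matching by sex. WT replicates thus differed from each other in it, as did the genotype means, and its part in the differences between genotypes was not tested beyond leaving that library out.

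The thymocyte label was checked against marker genes. Of 10 DP thymocyte markers all 10 were tested, with Cd4 at 621 to 715 CPM, and DESeq2 called 3 as decreased, namely Cd8a, Rag1 and Tcf7, beside 1.57% of all tested genes, while edgeR called 0. Defining genes of other lineages were low. The summed CPM of 7 B cell markers was 12.2 to 14.3, that of 8 myeloid markers 9.98 to 12.4, that of 7 gamma delta T cell markers 3.96 to 6.47 and that of 6 thymic epithelium markers 0.755 to 1.19, with Psmb11 at 0 in all libraries. All 7 markers of mature single positive cells were tested, and the result of a marker is not reported here. Of the others, DESeq2 called Il7r as increased, beside 2.14% of all tested genes, and Ccr7 as decreased, beside 1.57%, and edgeR called neither. These were not low, Il7r lying at 61.7 to 83.1 CPM and Ccr7, a receptor of maturing thymocytes, at 181 to 255 CPM. The part of these marker differences in the results below was not tested.

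Zbtb16 output was lower in both cKO libraries than in both WT libraries, and Zbtb16 was the gene of the 6 with the largest difference. It lies at chr9:48651797-48836225 on the - strand of build GRCm38 and spans 184429 bp, of which merged exons make up 4.22%, so most of the counted span is intron. Its level was 20.5 CPM in WT replicate 1, 12.7 CPM in WT replicate 2, 7.55 CPM in cKO replicate 1 and 5.23 CPM in cKO replicate 2. The groups did not overlap, and within each genotype replicate 1 was the higher library. The mean was 16.6 ± 5.48 CPM in WT and 6.39 ± 1.64 CPM in cKO (SD, n = 2), which is 2.60-fold lower, and the log2 fold change was -1.38 with an SE of 0.256.

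Behind these levels stood 872 and 619 fragments for WT, and 290 and 208 for cKO. The replicates of Zbtb16 differed more than those of most genes. The gap between its WT libraries was 0.67 on the log2 scale, larger than in 96.4% of the 3073 genes within 2-fold of its mean CPM, and the gap between its cKO libraries was 0.49, larger than in 95.2% of them. Without WT replicate 1, the library that stood apart, the log2 fold change was -1.01 (SE 0.348) and Zbtb16 was no longer called. It was also no longer called without cKO replicate 2, at -1.14 (SE 0.326).

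A gene counted as called when its DESeq2 adjusted p was under 0.05, its mean CPM was 1 or more and its fold was 1.2 or more. All 6 genes reached the CPM criterion, and Zbtb16 met all 3 criteria while the other 5 did not. Over the 11625 genes tested, 3.71% were called in either direction, 1.57% as decreased and 2.14% as increased, and nothing is read from that share for these 6 genes. edgeR and limma voom called none of the 6. The 5 genes not called had log2 fold changes between -0.28 and 0.17, and the median over the 6 genes was 0.03, beside 0.00 over all genes tested.

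**Figure D1:**
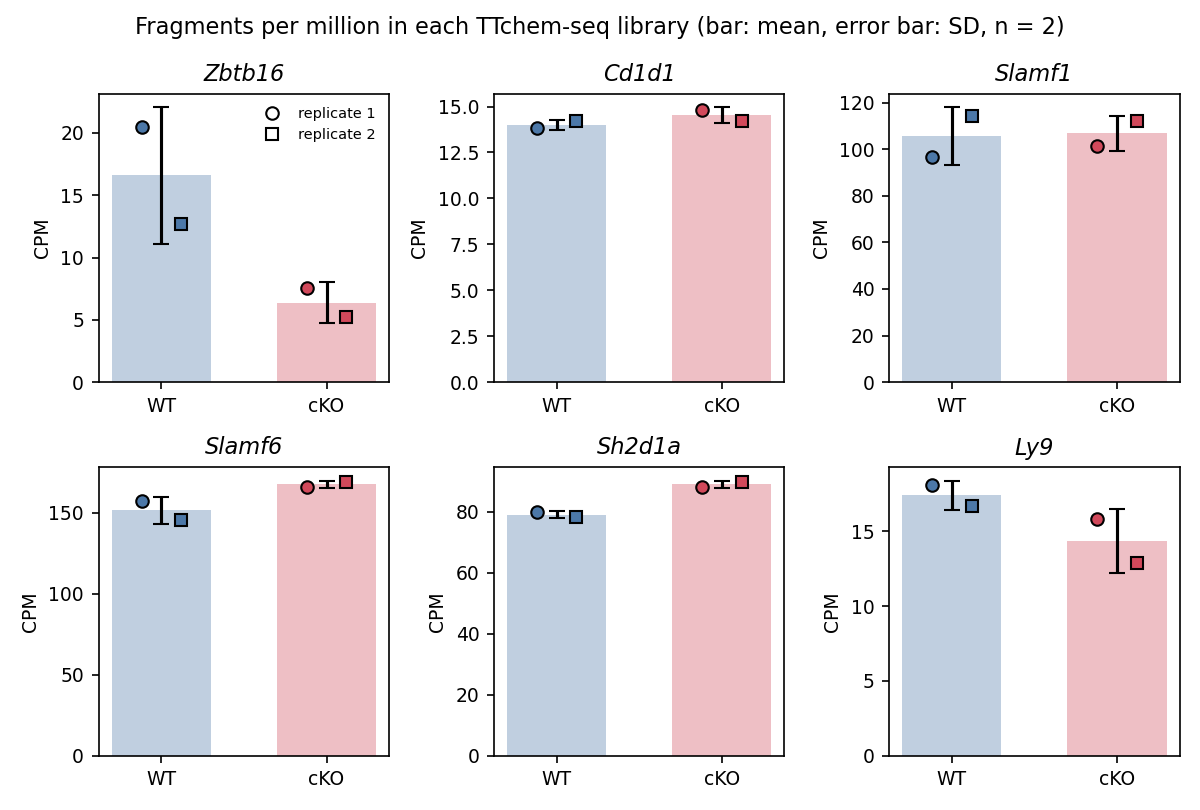
Output of the 6 genes in each TTchem-seq library in CPM, with points for libraries, bars for the mean of each genotype and error bars for the SD (n = 2). Zbtb16 averages 16.6 CPM in WT and 6.39 CPM in cKO with wide gaps between replicates, whereas the Cd1d1 and Slamf1 libraries of both genotypes overlap.

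Among the 182 genes called as decreased, Zbtb16 was one of the longest and had one of the lowest levels per length. Only 18 of them were longer, and only 4 had a lower level per length, given as CPM per Mb of gene. The median of the decreased genes was 20841 bp in length and 3756 CPM per Mb in level. Zbtb16 was at 111 and 68.9 CPM per Mb in WT and at 40.9 and 28.4 CPM per Mb in cKO. Of all tested genes, 5.94% had a lower level per length, and 95.1% were shorter than Zbtb16. In bulk libraries such as these, fewer cells that transcribe Zbtb16 and less RNA from each such cell cannot be told apart.

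Most markers of innate-like effector T cells were low or near absent in all libraries. Of 21 such genes 10 were tested, and DESeq2, edgeR and limma voom each called 0. In DESeq2, 2 (Icos and Gzma) had an unadjusted p under 0.05. DESeq2 called 3.71% of all tested genes, so a count of 0 among 10 is no result about these markers. The other 11 stayed under 1 CPM in every library, among them Klrb1c, which encodes NK1.1, at 0.305, 0.390, 0.416 and 0.0252 CPM. The summed level of the list was 131 and 105 CPM in WT and 206 and 101 CPM in cKO. Fasl, the death receptor ligand, alone ran from 5.58 CPM in cKO replicate 2 to 108 CPM in cKO replicate 1, and without it the sums were 112, 91.2, 97.3 and 95.5 CPM. Icos, a costimulatory receptor, was at 37.9, 32.3, 32.1 and 24.3 CPM (DESeq2 adjusted p = 0.318), and Il2rb, a cytokine receptor chain, was at 16.5, 12.1, 11.9 and 10.0 CPM (DESeq2 adjusted p = 0.400). In the other direction, Gzma, which encodes a granzyme, was at 2.06, 1.87, 3.10 and 5.03 CPM (DESeq2 adjusted p = 0.114), and Cd44, an adhesion receptor of activated T cells, was at 35.8, 29.1, 35.8 and 37.0 CPM (DESeq2 adjusted p = 0.677), with replicate 1 of both genotypes level. Of the 10 tested genes, 3 had both cKO libraries below both WT libraries, 2 had both above and 5 overlapped, beside 24.0% below and 24.9% above over all tested genes. The part of such cells in the Zbtb16 difference was not tested.

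No other tested gene near Zbtb16 was called. There were 5 within 500 kb, of which DESeq2, edgeR and limma voom each called 0, with 0 at an unadjusted p under 0.05 in DESeq2. With 3.71% of all tested genes called by DESeq2, a count of 0 among so few genes is no result about this region. Rexo2, an exonuclease gene, had a log2 fold change of 0.36 (SE 0.249), but 0.0021 with cKO replicate 1 left out and 0.65 with cKO replicate 2 left out. Rbm7, of the nuclear exosome targeting complex, was at 0.04 (SE 0.118), and Gm5617 at -0.16 (SE 0.444). Usp28, a deubiquitinase gene, was at 0.07 (SE 0.0945), and Zw10, a kinetochore gene, at -0.05 (SE 0.131). The nearest tested gene, Usp28, lies 149 kb from Zbtb16 and had 85.7 to 96.6 CPM, with overlapping groups.

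**Figure D2:**
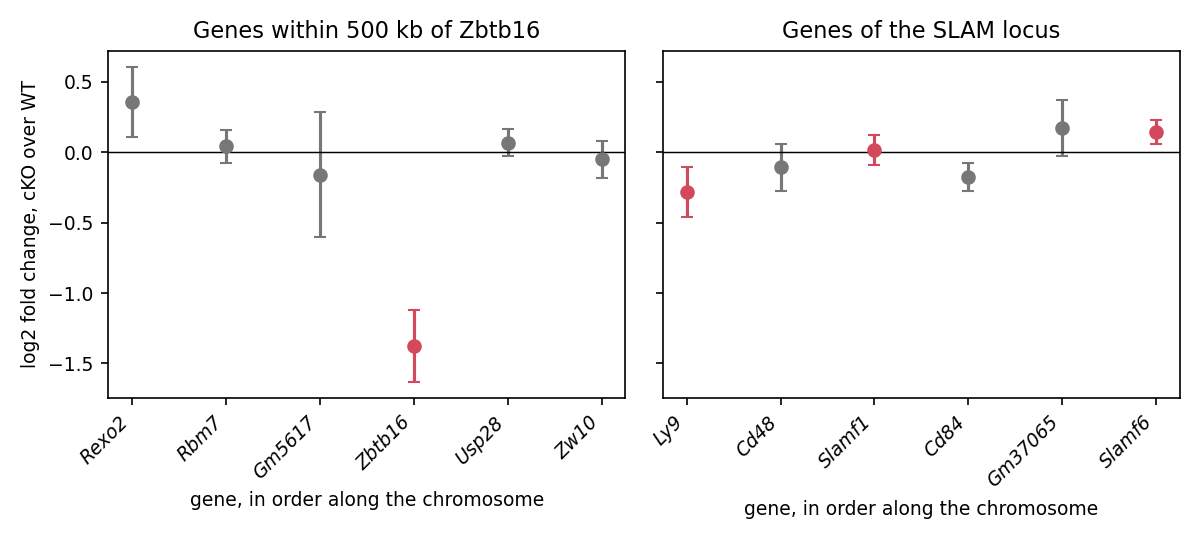
Log2 fold change of cKO over WT (points, with bars for the SE) for tested genes within 500 kb of Zbtb16 and for tested genes of the SLAM locus, in order along the chromosome. Red marks Zbtb16 at -1.38 on the left and the SLAM receptors Ly9, Slamf1 and Slamf6 on the right, and the grey neighbours lie between -0.18 and 0.36.

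The genes whose profile over the 4 libraries was most like that of Zbtb16 were sought among 11624 genes by the Euclidean distance between log2(CPM + 0.5) values centred on each gene's mean. The median distance was 1.44. The nearest profiles were those of A630023P12Rik (distance 0.208), Esrp2 (0.362), Rab4a (0.369), Gulo (0.421) and Abca1 (0.439). Esrp2 encodes a splicing regulator, Rab4a an endosomal GTPase, Gulo an enzyme of vitamin C synthesis and Abca1 a cholesterol exporter. Abca1 was at 405 and 271 CPM in WT and at 141 and 152 CPM in cKO. Of the other 5 genes described here, Ly9 was the nearest to Zbtb16 at a distance of 1.10 and rank 533, while Cd1d1 ranked 6602 and the other 3 ranked 8089 to 8921. With 4 libraries in 2 groups, likeness is a description of these libraries.

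Cd1d1, which encodes the lipid-presenting molecule CD1d, was at nearly the same level in all libraries. It lies at chr3:86995836-86999340 on the - strand, with a counted span of 3505 bp, the shortest of the 6. The RefSeq gene of the same build runs from 86995834 to 87012358, so fragments over the rest of that longer span were not counted for Cd1d1. Its level was 13.8 and 14.2 CPM in WT and 14.8 and 14.2 CPM in cKO, so the groups overlapped. The mean was 14.0 ± 0.279 CPM in WT and 14.5 ± 0.440 CPM in cKO (SD, n = 2), and the log2 fold change was 0.048 with an SE of 0.173. Leaving out any library kept it between 0.019 and 0.075.

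Cd1d2, the close paralogue of Cd1d1, lies beside it at chr3:86986586-86989532. It was at 5.25 and 9.08 CPM in WT and at 9.26 and 10.3 CPM in cKO, its log2 fold change being 0.44 (SE 0.272, DESeq2 adjusted p = 0.505) and 0.094 without WT replicate 1. Its share of the fragments of the pair was 27.6% in WT replicate 1 and 39.0%, 38.4% and 41.9% in the other 3 libraries. How fragments matching both genes were assigned is not given in the sources used here, so the split between Cd1d1 and Cd1d2 is uncertain.

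The SLAM receptor genes Ly9, Slamf1 and Slamf6 lie within 360 kb of chromosome 1 and did not all differ in the same direction. Slamf6 was higher in both cKO libraries, Ly9 was lower in both, and the Slamf1 libraries overlapped. None of the 3 was called. For scale, 24.9% of all tested genes had both cKO libraries above both WT libraries, and 24.0% had both below.

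Slamf6, which encodes the homophilic receptor Ly108, lies at chr1:171917462-171948958 on the + strand and spans 31497 bp. It was at 158 and 146 CPM in WT and at 166 and 169 CPM in cKO, with both cKO libraries above both WT libraries. The means were 152 ± 8.41 and 168 ± 2.13 CPM (SD, n = 2), and the log2 fold change was 0.14 with an SE of 0.0832. Gm37065 overlaps the start of Slamf6 on the other strand and was at 11.4, 14.8, 13.6 and 16.1 CPM, its log2 fold change being 0.17 (SE 0.199, DESeq2 adjusted p = 0.797).

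Slamf1, which encodes CD150, lies at chr1:171767132-171801184 on the + strand and spans 34053 bp. It was at 96.7 and 114 CPM in WT and at 101 and 112 CPM in cKO. Replicate 2 was the higher library in both genotypes, and each cKO library lay between the WT libraries. The means were 106 ± 12.4 and 107 ± 7.64 CPM (SD, n = 2), and the log2 fold change was 0.014 with an SE of 0.107. It was -0.11 when WT replicate 1 was left out and 0.15 when WT replicate 2 was, so its sign followed the library left out.

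Ly9, which encodes CD229, lies at chr1:171588613-171607410 on the - strand and spans 18798 bp. It was at 18.1 and 16.7 CPM in WT and at 15.8 and 12.9 CPM in cKO. The groups did not overlap, and 16.7 and 15.8 CPM, the inner values, were close. The means were 17.4 ± 0.983 and 14.3 ± 2.12 CPM (SD, n = 2), and the log2 fold change was -0.28 with an SE of 0.177. It was -0.14 (SE 0.246) without cKO replicate 2 and -0.43 (SE 0.251) without cKO replicate 1.

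Of the 3 other tested genes of the SLAM locus, DESeq2, edgeR and limma voom each called 0. In DESeq2, 0 had an unadjusted p under 0.05. Beside the 3.71% of all tested genes that DESeq2 called, a count of 0 among so few is no result about this locus. Cd84, another homophilic SLAM receptor gene, was at 70.6, 68.5, 63.2 and 60.1 CPM, its log2 fold change being -0.18 (SE 0.0993, DESeq2 adjusted p = 0.431). Cd48, whose product binds CD2 and CD244, was at 16.3, 18.1, 16.3 and 15.7 CPM, its log2 fold change being -0.11 (SE 0.166, DESeq2 adjusted p = 0.861). Cd244a and Slamf7, which are used by NK cells, were under the CPM criterion and were not tested.

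Sh2d1a, which encodes the adaptor SAP, had slightly higher output in both cKO libraries. It lies at chrX:42502565-42522095 on the + strand and spans 19531 bp. It was at 79.9 and 78.2 CPM in WT and at 88.2 and 89.8 CPM in cKO, with groups that did not overlap and small gaps between replicates. The means were 79.1 ± 1.15 and 89.0 ± 1.15 CPM (SD, n = 2), and the log2 fold change was 0.17 with an SE of 0.0920. The gene is X-linked, and without WT replicate 1, the library with high Xist, its log2 fold change was 0.17 (SE 0.126). The part of the Xist pattern of that library in this difference was not tested.

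Between genes, levels were compared per length. In CPM per Mb of gene, the order of the means was Slamf6, Sh2d1a, Cd1d1, Slamf1, Ly9 and Zbtb16. Slamf6 ran from 4628 to 5375 CPM per Mb over the 4 libraries, Sh2d1a from 4006 to 4600 and Cd1d1 from 3942 to 4232. The ranges of Sh2d1a and Cd1d1 overlapped, and Cd1d1 was the higher of the pair in WT replicate 2. Slamf1 ran from 2841 to 3358 CPM per Mb, Ly9 from 684 to 962 and Zbtb16 from 28.4 to 111, with no overlap between these neighbours in the order. Slamf6, Sh2d1a, Cd1d1 and Slamf1 lay above the median of all tested genes, 1456 CPM per Mb, and Ly9 and Zbtb16 below it. The order holds only for the spans as deposited, of which that of Cd1d1 is far shorter than its RefSeq gene. Per kb of merged exons Sh2d1a came first and Cd1d1 next to last, and only Zbtb16, the last, kept its place.

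**Figure D3:**
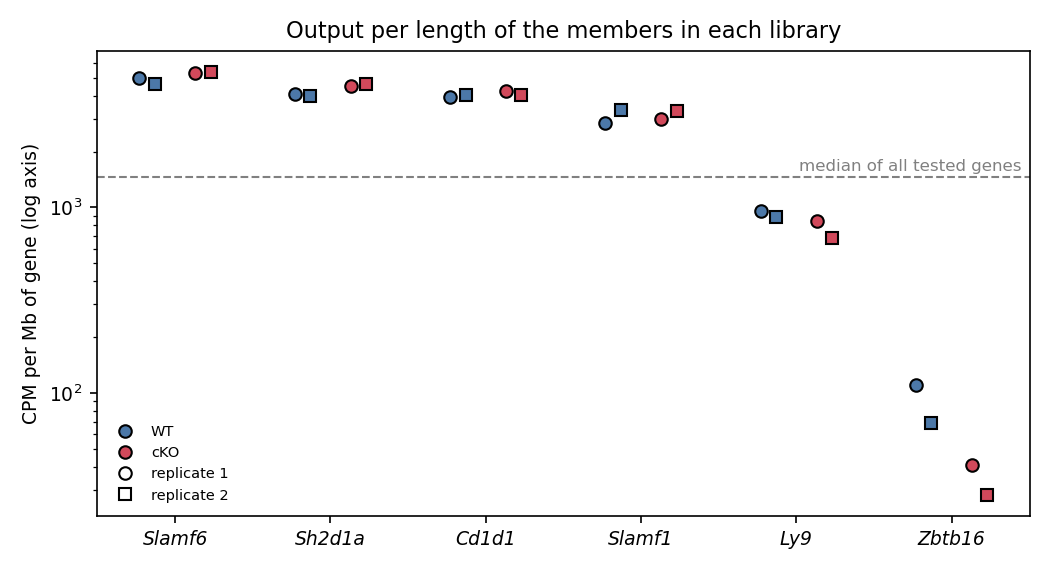
Level of the 6 genes per length in each library, in CPM per Mb of gene on a log axis, with circles and squares for replicates 1 and 2 and a dashed line for the median of all tested genes, 1456 CPM per Mb. Zbtb16 lies lowest, at 28.4 to 111 CPM per Mb, with its WT and cKO libraries apart from each other, and Sh2d1a and Cd1d1 lie at like heights.

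The pathway around these genes was followed through 5 lists with 75 genes in the table, of which 66 were tested. Of these, 4 were called as increased and 2 as decreased, or 9.09% beside 3.71% of all tested genes, and their median log2 fold change was -0.05 beside 0.00. All but Bcl6 were regulators of NKT cell development that also act in DP thymocytes at large. Of the 6, edgeR and limma voom called Myb alone. The lists were chosen with earlier results of these data known, so nothing is read from their share of called genes.

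The lists for signalling below SLAM receptors and for lipid presentation held no gene called by DESeq2, edgeR or limma voom. Each had 1 gene (Inpp5d and Hexa) at an unadjusted p under 0.05 in DESeq2. As DESeq2 called 3.71% of all tested genes, the lack of calls is no result about these lists. The median log2 fold change of 9 tested SAP signalling genes was -0.08. Fyn, the kinase that SAP recruits, was at 823, 763, 803 and 696 CPM with a log2 fold change of -0.08 (SE 0.0826). Prkcq, which encodes the kinase PKC-theta, was at 0.09 (SE 0.0817), and Nfkb1, the NF-kB subunit gene downstream of it, at -0.14 (SE 0.0728). All 16 lipid presentation genes were tested, and their median was -0.08. Those with the highest CPM were Psap, the precursor of the saposins that load lipids on CD1d, at -0.10 (SE 0.0738), Ap3b1, of the adaptor that sorts CD1d to lysosomes, at -0.05 (SE 0.0731), and Lipa, a lysosomal lipase gene, at 0.02 (SE 0.0775).

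Of 23 tested regulators of NKT cell development, Myb, Ezh2 and Hivep3 were called as increased and Egr1 and Tcf7 as decreased. Myb, needed for the long life of DP thymocytes in which the NKT receptor chain is rearranged, rose from 579 and 584 CPM in WT to 807 and 844 CPM in cKO (log2 fold change 0.50, SE 0.0698, DESeq2 adjusted p = 3.91e-10, edgeR adjusted p = 0.0322). Myb kept its call under edgeR, limma voom and every left-out library.

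Ezh2, the methyltransferase of Polycomb complex PRC2, rose from 143 and 153 CPM to 193 and 188 CPM (log2 fold change 0.36, SE 0.0825, DESeq2 adjusted p = 9.83e-04, edgeR adjusted p = 0.0932). Hivep3, a zinc finger gene required for NKT cell development, rose from 60.3 and 67.2 CPM to 84.7 and 81.9 CPM (log2 fold change 0.38, SE 0.102, DESeq2 adjusted p = 0.0078, edgeR adjusted p = 0.122). Leaving out WT replicate 2 kept both calls in DESeq2, and leaving out any other library lost them.

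Egr1, an early gene of T cell receptor signalling whose family acts on Zbtb16, fell from 19.1 and 16.9 CPM to 10.6 and 11.5 CPM (log2 fold change -0.70, SE 0.178, DESeq2 adjusted p = 0.00406, edgeR adjusted p = 0.0932), and it was not called with any 1 library left out. Tcf7, which encodes TCF-1, fell from 4019 and 4236 CPM to 3679 and 2919 CPM (log2 fold change -0.33, SE 0.0943, DESeq2 adjusted p = 0.0174, edgeR adjusted p = 0.253), and of the fits with 1 library left out only that without cKO replicate 1 called it, its log2 fold change being -0.17 without cKO replicate 2. Ets1 and Satb1, which with Tcf7 had the highest CPM of the list, were at 0.16 (SE 0.0677) and -0.06 (SE 0.0707) on that scale and were not called. Tcf12, the HEB gene, had both cKO libraries higher, at 1450 and 1422 CPM against 1227 and 1219 CPM (log2 fold change 0.23, SE 0.0654, DESeq2 adjusted p = 0.016), and was not called because its fold was under 1.2.

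Among 18 tested BTB zinc finger genes, the family of Zbtb16, only Bcl6 was called by DESeq2, a share near the 3.71% of all tested genes, and edgeR called 0. Bcl6, a repressor best known from follicular helper T cells, was at 144 and 176 CPM in WT and at 208 and 193 CPM in cKO (log2 fold change 0.33, SE 0.102, DESeq2 adjusted p = 0.0388, edgeR adjusted p = 0.243), and of the fits with 1 library left out only that without WT replicate 2 called it, its log2 fold change being 0.18 without WT replicate 1. Zbtb20, Patz1 and Bach2, those of the list with the highest CPM, were at -0.05 (SE 0.0691), -0.06 (SE 0.0851) and -0.10 (SE 0.0698). The median of the family was 0.02, and its lowest value, that of Zbtb7b, was -0.33 (SE 0.231). Without cKO replicate 2 the value of Zbtb7b was 0.027.

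**Figure D4:**
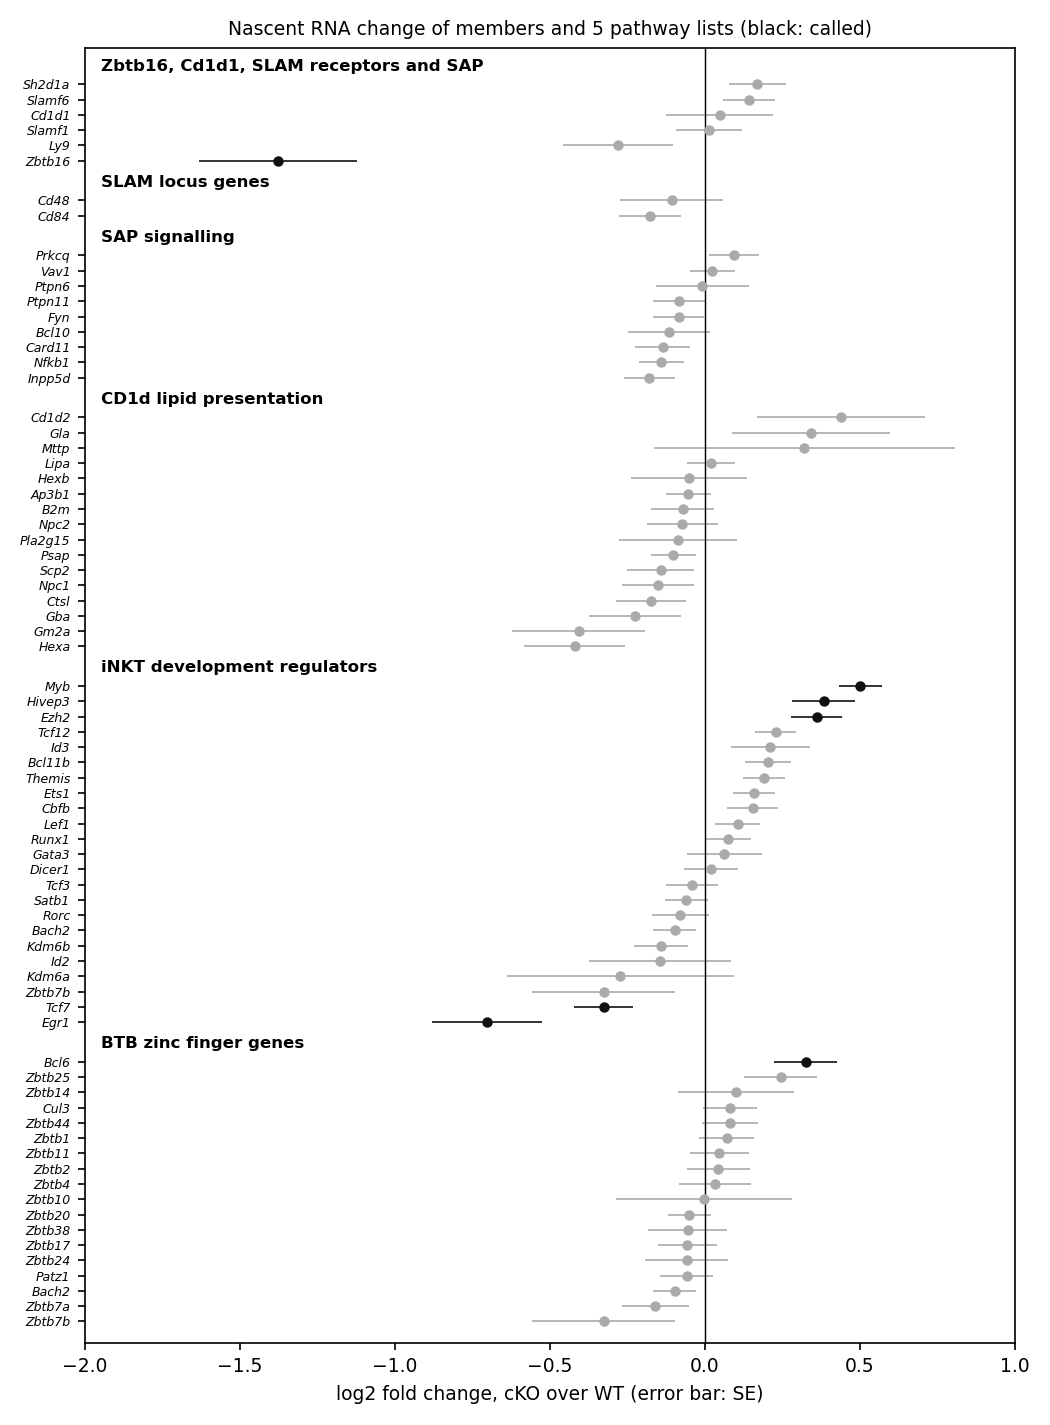
Log2 fold change of cKO over WT (points, with bars for the SE) for the 6 genes and for the tested genes of the 5 pathway lists, with called genes in black. Zbtb16 at -1.38 lies outside the range of all listed genes, whose outermost values are -0.70 for Egr1 and 0.50 for Myb.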

How the data were processed

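TTchem-seq libraries of DP thymocytes, 2 Tox4 WT and 2 Tox4 cKO, were placed in groups by their titles. Per the study's methods and the submitters' processing notes, the authors filtered reads with fastp 0.13.1, aligned them to GRCm38 (mm10) with STAR 2.7.9a and did not scale to the yeast spike-in. The methods name STAR gene counts, while the notes list featureCounts 1.6.1, whose layout the table has. The protocols differ on whether poly(A) RNA was captured, and how DP cells were purified for this assay is not given in the sources used here. The deposited values were expected counts, that is, fragments over the table's gene spans, introns included (for Cd1d1 a span shorter than the RefSeq gene), of which 8.61% were fractional, and they were rounded here. CPM used the table's own totals of 38429786 to 48690591 fragments. 0 columns belonged to unmapped samples.

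Genotypes were compared with DESeq2 1.42.0, the tool the study's methods name, by the Wald test without covariates, which those methods do not specify, and, as there, calls needed an adjusted p (Benjamini-Hochberg) under 0.05, a mean CPM of 1 or more and a fold of 1.2 or more. edgeR 4.0.16 and limma 3.58.1 (voom) on the 13802 genes kept by the low-count filter of edgeR, other size factors and filters, a replicate block and the removal of each library were alternatives. R 4.3.3, Python 3.11.15, pandas 2.3.3, numpy 2.4.6 and matplotlib 3.10.9 were used, and the fits were tested on simulated data. The genes described and the lists were chosen with earlier results of these data known. Genes named were the 6 described, the called genes and the 3 genes with the highest CPM of each pathway list, tested genes of the SLAM locus and within 500 kb of Zbtb16, the 5 nearest profiles to that of Zbtb16, and Tox4 and Xist as checks. Cd1d2, Tcf12, Klrb1c, Icos, Gzma, Cd44, Il2rb, Fasl, Inpp5d, Hexa and Zbtb7b were named after their values were seen. Outside these rules, Cd4, Cd8a, Rag1, Psmb11, Il7r and Ccr7 were named as markers and Kdm6a beside Xist. Mettl3 and Rab2b were named as overlapping Tox4, and Cd244a and Slamf7 as untested genes of the SLAM locus. The result of 1 marker gene of mature single positive cells is not reported here.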

Additional observations from a re-analysis of the deposited data

How the results depend on the processing

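The call of Zbtb16 depended on the test and on single libraries. Of the 6 genes, DESeq2 called 1, edgeR and limma voom each called 0, and fits without 1 library called 0 to 1, with 0 without WT replicate 1 and without cKO replicate 2. The other scalings and filters, and edgeR with no low-count filter, which was chosen after seeing the data, called 1. The log2 fold change of Zbtb16 ran from -1.68 to -1.01 without 1 library and from -1.38 to -1.35 under the other alternatives. Of the pathway genes DESeq2 called 6, edgeR and limma voom 1 (Myb), and DESeq2 without independent filtering 5. edgeR with no low-count filter called 7, which were the 6 of DESeq2 and Kdm6a. Fits without 1 library changed which genes were called, and only Myb kept its call in all of them. Without WT replicate 2, Kdm6a, the X-linked gene highest in WT replicate 1, was called, while Egr1 and Tcf7 were not. The order of levels kept all 6 ranks without any library and 1 of 6 per kb of merged exons. The labels do not say that replicate numbers pair the libraries, and deviations of same-numbered libraries correlated at r = -0.03 over 11625 genes. With the number as a replicate block, 1 of the 6 genes (Zbtb16, -1.36) and 1 pathway gene (Myb) were called. Of 402 values for 31 other named genes, 331 kept direction and call, 58 lost the call, 1 gained it and 12 changed sign. All 12 were of 8 uncalled genes with a library left out, and the lowest and highest values over the libraries left out were -0.18 and 0.011 for Fyn, -0.00037 and 0.19 for Prkcq, -0.031 and 0.073 for Lipa, -0.12 and 0.0038 for Satb1, -0.14 and 0.022 for Patz1, -0.0072 and 0.38 for Gm37065, -0.42 and 0.062 for Gm5617, and -0.14 and 0.044 for Zw10. Named genes outside these 31 also changed sign. Among them, Zbtb7b went from -0.33 to 0.027 without cKO replicate 2, and Kdm6a from -0.27 to 0.15 without WT replicate 1. The causes were not tested. With 2 libraries a group, the precision rests on few libraries, and Zbtb16 on 208 to 872 fragments in each.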
